A study of Mus musculus with 2 samples.

Results

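The genes described here encode enzymes that attach or remove ubiquitin and its relatives, together with the COP9 signalosome. They are the protein-coding genes of the mouse RefSeq table (GRCm38.p6, the assembly that mm10 names) whose symbol is Usp, Ube2, Uba, Ufc, Ufm, Ufl or Cops with a number and optional letters, plus Gps1. The members described are 112 of 21883 protein-coding genes: 36 conjugating enzymes (Ube2), 55 ubiquitin-specific proteases (Usp), 6 activating enzymes (Uba), 3 genes of the UFM1 system (Ufc1, Ufm1 and Ufl1), 10 subunit genes of the COP9 signalosome and 2 genes that match by symbol and belong to none of these classes. The last are the GTPase regulator gene Usp6nl and Ube2cbp, whose product is a ligase that binds a conjugating enzyme. Occupancy of YY1, a zinc finger transcription factor, was profiled in mature adipocytes, freed with collagenase, of the subcutaneous fat at the groin (iWAT). The mice were male, wild type, of strain C57 and aged 8 to 10 weeks. They were kept at room temperature or had 7 days of cold stress, and each condition has 1 library. How many mice went into a library is not stated in the labels. The labels name the assay ChIP-seq, but the protocol given there is CUT&Tag, where the antibody brings a transposase that cuts and tags nearby DNA in native nuclei.

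Ubiquitin is a small protein that is joined to other proteins in a relay: an activating enzyme loads it, a conjugating enzyme carries it, and a ligase chooses the target. Proteases of the USP family take ubiquitin off again or trim its chains. NEDD8, SUMO and UFM1 are ubiquitin relatives with relays of their own. NEDD8 switches on the cullin ligases, and the COP9 signalosome switches them off by removing NEDD8. UFM1 modifies ribosomes at the endoplasmic reticulum.

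The deposited lists held 165 peaks at room temperature and 1259 after cold, with a median of 13 and 20 fragments at the summit. Fragment numbers were recovered from the deposited fold enrichment and p of each peak, are followed by exact 95% Poisson intervals, and cover counting error only. Total depths are unknown. The lowest backgrounds, each divided by the smallest peak width of its list, put the cold library at 1.05 times the depth of the other. A site without an entry is not a measured 0, since the lowest listed pileup was 6 fragments in each list. In the peak names, the list labelled room temperature has the number 30 and the list labelled cold stress the number 4, with no statement in the labels of what they mean. Of 6 adipocyte marker genes 0 had a listed peak in either library, and as binding does not measure expression, the labelled cell type could not be checked.

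The sequences below are shown because they hold letters of the YY1 motif near the summits of members, or hold them where no peak was listed. Each is from the RefSeq promoter table (GRCm38.p6), runs 5′ to 3′ along the gene's own strand, and has the match to AANATGGC or to its reverse complement GCCATNTT in capitals. The first is the stretch of 250 bases before the annotated start of Usp31 (chr7:121707443-121707692, minus strand), the member with the most fragments. The gene's outer end in the gene table lies inside its last bases.
Usp31: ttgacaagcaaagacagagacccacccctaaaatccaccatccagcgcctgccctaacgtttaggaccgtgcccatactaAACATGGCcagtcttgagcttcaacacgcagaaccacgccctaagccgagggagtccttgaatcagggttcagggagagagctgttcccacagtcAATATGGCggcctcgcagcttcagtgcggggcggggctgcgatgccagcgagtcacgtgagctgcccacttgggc
The next 5 are stretches of 30 bases around a match in members with a cold peak, at chr16:17201446-17201475 (minus), chr4:155943833-155943862 (plus), chr1:171287912-171287941 (minus), chrX:20662916-20662945 (plus) and chr5:138161099-138161128 (plus).
Ube2l3: gcaccagatccAAGATGGCggccagcagga
Ube2j2: ccgtccccggagcgGCCATCTTggaggctg
Usp21: cggtggccgggcggcaccaacaAAGATGGC
Uba1: ggctctgccgccGCCATCTTgtgtcggctg
Cops6: cgggcgcggggAAAATGGCggcggcagctg
The last pair comes from members without a peak in either list (chr2:6322640-6322669, plus, and chrY:1459734-1459763, minus) that hold, on one of the strands, the longer YY1 motif of 11 bases, which has G at the open position and goes on with GGC, as the stretches of Ube2l3 and Uba1 do.
Usp6nl: ccgcccgcgccAAGATGGCggcggccgcgg
Usp9y: tcgttggggccGCCATCTTatttttaagtg

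The first comparison asked which classes of these genes carried YY1, where a gene has a peak if a summit lies inside it or within 1 kb of either end. After cold, 16 of 112 members had a peak (14.3%, exact 95% Clopper-Pearson interval 8.39 to 22.2), against 6.43% of all protein-coding genes. At room temperature 5 members did (4.46%, 1.47 to 10.1), against 0.864% of all genes. All 5 were among the 16. In both libraries the interval of the members lay above the share of all genes. That is a description and no test, because the members were chosen with earlier results of these data known. The interval also counts genes as independent, although Ufc1 and Usp21 share a peak in each list. The members are longer than other genes, with a median of 30.6 kb against 17.2 kb, which gives a summit more room to fall inside them. With summits within 1 kb of a gene end alone, 14 of 112 members had a cold peak (12.5%, 7.01 to 20.1) against 5.64% of all genes. By that count 5 members had a room temperature peak, against 0.772% of all genes. The part of gene length was not tested.

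By class, the cold list reached 3 of 36 conjugating enzymes (8.33%, 1.75 to 22.5) and 6 of 55 proteases (10.9%, 4.11 to 22.2). It reached 2 of 6 activating enzymes (33.3%, 4.33 to 77.7), 2 of 3 UFM1 genes (66.7%, 9.43 to 99.2) and 3 of 10 signalosome genes (30%, 6.67 to 65.2). The large classes were near the share of all genes, and the small ones had higher shares with wide intervals that overlap those of the large classes. Differences between the classes were not tested. The proteases had the highest median length of these 5 classes, 47.4 kb, and the UFM1 genes the lowest, 10.4 kb. At room temperature the classes had 1, 1, 0, 1 and 2 members with a peak in the same order. Neither Usp6nl nor Ube2cbp had a peak in either library.

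**Figure D1:**
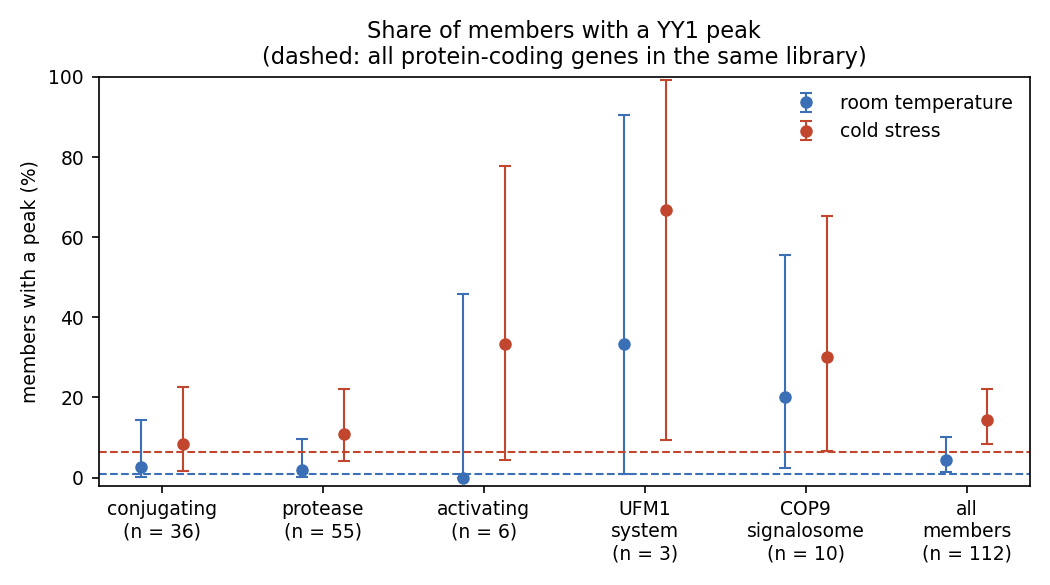
Share of members with a listed YY1 peak in each class (percent, with exact 95% Clopper-Pearson intervals) in the room temperature and cold libraries, beside the share of all protein-coding genes as dashed lines (0.864% and 6.43%). The intervals of the classes overlap, and those of all 112 members lie above the dashed line of their library. The members were chosen with earlier results of these data known, so the intervals are no test.

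Among the conjugating enzymes, Ube2l3 had the strongest peak and the only one in both lists. Its product passes ubiquitin to ligases that form an intermediate with it, parkin among them. The summit carried 12 room temperature fragments (6.2 to 21) and 33 cold fragments (22.7 to 46.3), and the cold peak spanned chromosome 16, 17201248 to 17201591 (mm10), with its summit 92 bp after the annotated start. Ube2j2, an enzyme anchored in the endoplasmic reticulum that serves the disposal of misfolded proteins, was listed after cold only, with 21 fragments (13 to 32.1) and the summit 2 bp after its start (chromosome 4, 155943675 to 155943933). Ube2s, which extends ubiquitin chains for the anaphase-promoting complex, had 14 fragments after cold (7.65 to 23.5), 681 bp before its start (chromosome 7, 4812899 to 4813199). The other 33 conjugating enzyme genes had no listed peak in either library.

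Among the proteases, Usp31 and Usp21 stood well above the other 4. Usp31 had 83 fragments after cold (66.1 to 103) on a background of 0.592, the tenth highest −log10 q of the cold list, with the summit 102 bp before its start (chromosome 7, 121707342 to 121707851). It had no room temperature entry, whereas 18 of the 20 cold peaks with at least 83 fragments did. Usp21, which removes ubiquitin from histone H2A, had 13 room temperature fragments (6.92 to 22.2) and 58 cold fragments (44 to 75), with the cold summit 100 bp after its start (chromosome 1, 171287573 to 171288075). The cold intervals of Usp31 and Usp21 overlap each other and do not overlap those of the other 4.

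The other 4 proteases were listed after cold only. Usp34, which takes ubiquitin off the Wnt pathway protein axin, had 24 fragments (15.4 to 35.7; chromosome 11, 23306434 to 23306708), 3396 bp inside the gene but 314 bp before an annotated start. Usp38 had 23 fragments (14.6 to 34.5; chromosome 8, 81015410 to 81015718), 669 bp before its start. Usp5, which takes apart free ubiquitin chains, had 16 fragments (9.15 to 26; chromosome 6, 124829124 to 124829507), inside the gene and within 1 kb of an end of Cdca3. Usp32 had 11 fragments (5.49 to 19.7; chromosome 11, 85140075 to 85140442), in reach of an end of 1700125H20Rik as well. The intervals of these 4 overlap each other, and their order was not tested. No peak was listed at the remaining 49 protease genes.

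Both activating enzyme genes with a peak were listed after cold only. Uba1 encodes the main enzyme that loads ubiquitin, and its summit carried 15 fragments (8.4 to 24.7; chromosome X, 20662806 to 20663091). It lay 4645 bp from the gene's outer end, yet 51 bp after one of its annotated starts. Uba3 encodes the catalytic subunit of the NEDD8-activating enzyme and had 18 fragments (10.7 to 28.4; chromosome 6, 97205372 to 97205703), 126 bp after its start. The intervals of the pair overlap. Uba2 of the SUMO relay, Uba6, Uba7 and the Y-linked copy Uba1y had no listed peak.

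In the UFM1 system, Ufc1 and Ufl1 had a peak, and Ufm1, the modifier gene itself, had none. Ufc1, the conjugating enzyme for UFM1, was the only member with 2 summits in each list. The summit inside the gene, 278 bp after its start in the cold list, carried 12 room temperature fragments (6.2 to 21) and 67 cold fragments (51.9 to 85.1; chromosome 1, 171294396 to 171295035). The other is the peak at the start of Usp21, which lies 703 bp beyond the far end of Ufc1 and 7141 bp from its start. Ufl1, the ligase for UFM1, had 11 fragments after cold (5.49 to 19.7; chromosome 4, 25281546 to 25281850), 90 bp after its start. The cold intervals of Ufc1 and Ufl1 do not overlap.

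Of the COP9 signalosome, Cops4, Cops5 and Cops6 had a peak, and Gps1, Cops2, Cops3, Cops7a, Cops7b, Cops8 and Cops9 had none. Cops5 and Cops6 encode the metalloprotease-like pair of the complex, in which Cops5 cuts NEDD8 from cullins. Cops6 had 12 room temperature fragments (6.2 to 21) and 31 cold fragments (21.1 to 44; chromosome 5, 138160967 to 138161336), 38 bp after its start. Cops5 had 10 room temperature fragments (4.8 to 18.4) and 15 cold fragments (8.4 to 24.7; chromosome 1, 10037724 to 10038097), inside the gene and within 1 kb of an end of Cspp1. Cops4 was listed after cold only, with 13 fragments (6.92 to 22.2; chromosome 5, 100518371 to 100518653), 195 bp after its start. The 3 cold intervals overlap. When each summit counted only for its nearest gene end, 1 signalosome gene instead of 2 had a room temperature peak.

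**Figure D2:**
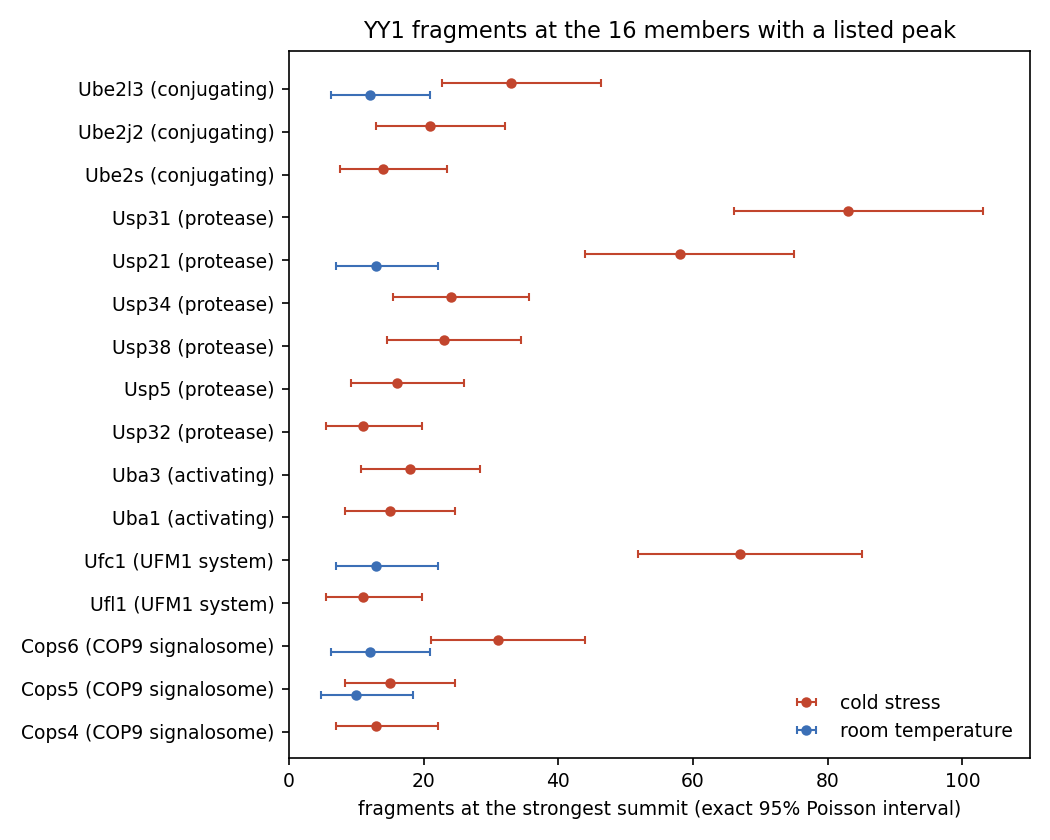
YY1 fragments at the strongest summit of each of the 16 members with a listed peak (horizontal axis, with exact 95% Poisson intervals), by library; a member without a blue point has no room temperature entry. Usp31, Ufc1 and Usp21 had 83, 67 and 58 cold fragments, and the other members 11 to 33. The strongest room temperature summit of Ufc1 is the one it shares with Usp21.

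The second comparison set the cold library against the room temperature library. Of the 16 members with a cold peak, 5 were also listed at room temperature (31.2%, 11 to 58.7), against 13.2% of all genes with a cold peak. The interval of the members includes 13.2%, and Ufc1 and Usp21 share a peak in each list. Over all genes 0.85% were listed in both libraries. Members in both lists had 15 to 67 cold fragments (median 33), and those in the cold list only had 11 to 83 (median 16). Apart from Usp31, no cold-only member exceeded 24 fragments. In these pooled nuclei, more fragments per bound nucleus and more bound nuclei cannot be told apart. Nor can either be told from a difference in preparation between the libraries, since each condition has 1. All 154 shared peaks with low background had more cold fragments, at ratios of 1.36 to 10.1.

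The members shared 5 peaks between the lists, and each had more fragments after cold. The cold to room temperature ratio was 5.58 at the inner Ufc1 peak (exact 95% interval 3 to 11.3) and 4.46 at the peak of Usp21 (2.42 to 8.88). It was 2.75 at Ube2l3 (1.38 to 5.85), 2.58 at Cops6 (1.29 to 5.52) and 1.5 at Cops5 (0.63 to 3.73). The interval of Cops5 includes equal counts, and the others do not. All 5 intervals include 3.27, the median ratio of the 154 shared peaks with low background (quartiles 2.57 and 4.17, range 1.36 to 10.1), and they overlap each other. Cops5 was near the lower end, with a ratio that 1.95% of these 154 peaks did not exceed. The inner Ufc1 peak was toward the upper end, at 91.6%.

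Summed over the 5 peaks, the members had 59 fragments at room temperature and 204 after cold, a ratio of 3.46 (2.58 to 4.7). Without both peaks at Ufc1 it was 2.32 (1.54 to 3.58), from 34 and 79 fragments. The Ufc1 peaks also widened most in the lists, from 274 to 640 bp and from 245 to 503 bp, while the other 3 peaks were 255 to 383 bp wide at room temperature and 344 to 374 bp after cold. A shared peak had to be listed in both libraries, where the lowest −log10 q was 0.963 at room temperature and 1.49 after cold. These ratios therefore describe shared peaks only, and with 1 library per condition they have no replicate check.

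**Figure D3:**
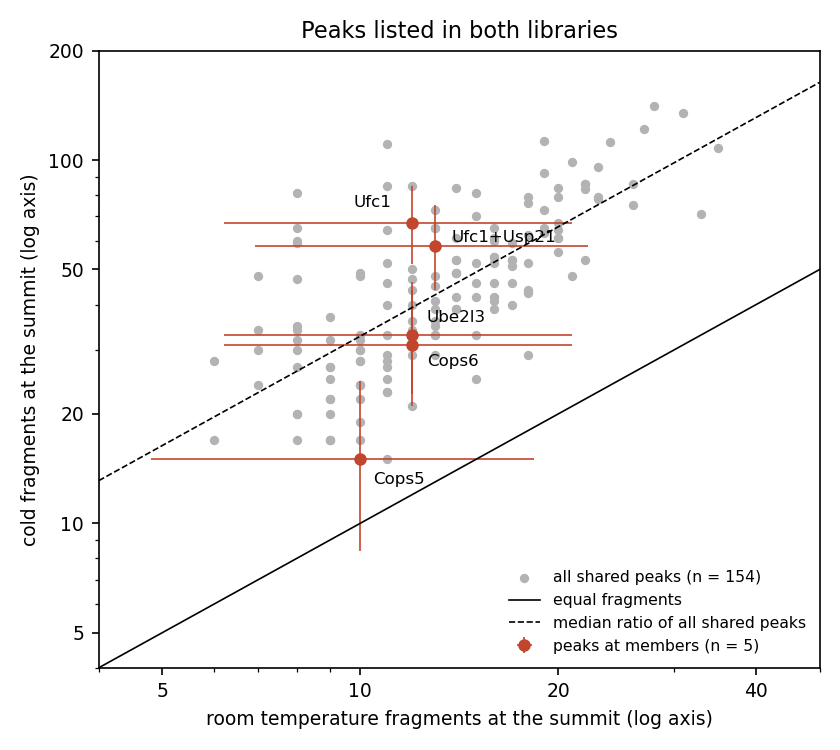
Fragments at the summits of peaks listed in both libraries, room temperature on the horizontal and cold on the vertical axis (both logarithmic), with the 5 member peaks and their exact 95% Poisson intervals over all 154 shared peaks in grey. All 5 lie above the line of equal fragments, Cops5 nearest to it with 10 and 15 fragments and Ufc1 farthest with 12 and 67.

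The third comparison asked where in the genes the summits lay. The promoter table gives strand and start for 90 of the 112 members, and for 14 of the 16 with a cold peak. Cops5 and Usp5 have no entry. Of the 15 cold summits at these 14 members, 14 lay within 1 kb of an annotated start (93.3%) and 11 within 300 bp (73.3%). Over all genes with a cold peak and an entry, 90.3% and 72.4% of 1229 summits did. The remaining member summit is the one Ufc1 shares with Usp21. Summits at or after the start made up 10 of 15 (66.7%), against 63.5% over all genes. The median distance from the start was 126 bp for members and 140 bp for all genes. Only summits inside a gene or within 1 kb of an end were counted, which limits these distances beforehand in both sets. No library without the YY1 antibody was analysed here, so cutting of open chromatin at starts and YY1 occupancy there cannot be told apart. The 4 summits more than 200 bp before a start belonged to proteases and a conjugating enzyme, namely Usp32, Usp34, Usp38 and Ube2s.

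**Figure D4:**
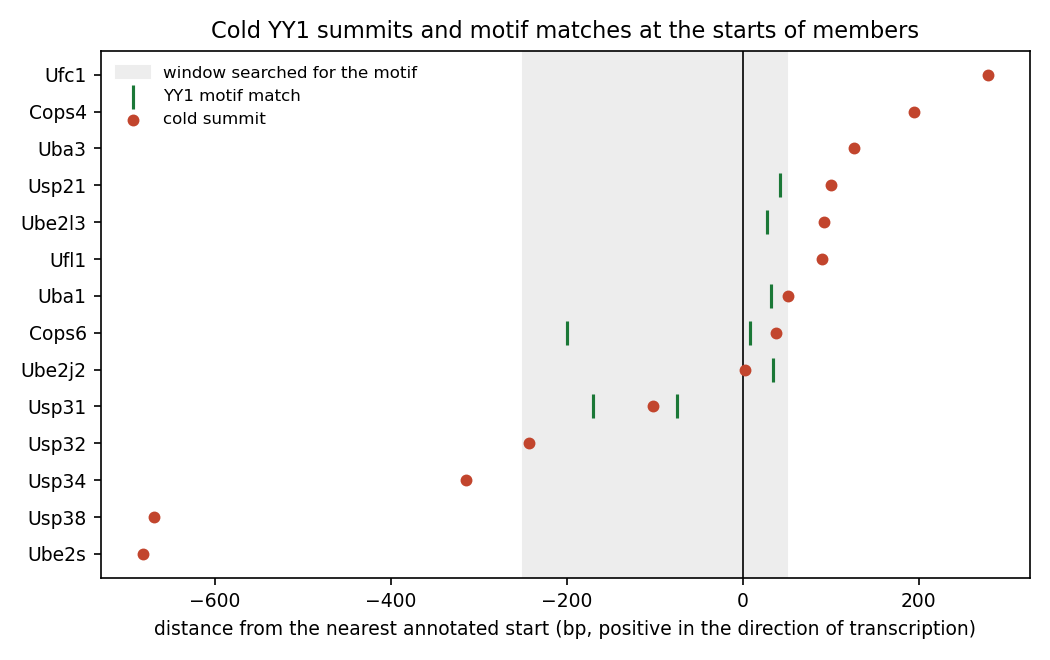
Cold YY1 summits (red) and YY1 motif matches (green ticks) of the 14 members with an annotated start, by distance from the nearest start in bp; the grey band is the promoter window searched, from 250 bp before to 50 bp after the start. Most summits lie within 300 bp of the start, from 681 bp before it at Ube2s to 278 bp after it at Ufc1.

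The promoter sequences were then searched for the YY1 motif AANATGGC on both strands, in the window from 250 bp before to 50 bp after each annotated start. Of the 14 members with a cold peak and an entry, 6 had a match (42.9%, 17.7 to 71.1): Cops6, Uba1, Ube2j2, Ube2l3, Usp21 and Usp31. Of 76 members without a cold peak 11 did (14.5%, 7.45 to 24.4). Over all 17491 genes with an entry the share was 7.46%. It was 45.5% of 1168 genes with a cold peak and 4.74% of 16323 genes without, and the interval of the members with a peak includes 45.5%. Members without a peak had a share whose interval lies above that of other genes without a peak. The GC content differed little between genes with and without a cold peak (median 60% and 56%) and was higher in members without a peak (63.8%). Among genes without a cold peak whose GC content reached the 60% median of genes with one, 4.39% had a match. With the motif ATGGCGGC, the share rose from 2.05% of genes without a cold peak to 3.71% at that GC content. Members without a peak had 9.21% (3.78 to 18.1). With the longer motif of 11 bases these shares were 0.331%, 0.676% and 2.63% (0.32 to 9.18), an interval that includes both others. The part of GC content was not tested.

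At the members with a match, the distance from the summit to the nearest match was taken. Matches were searched only from 250 bp before to 50 bp after a start, and most summits lie near a start, which limits these distances beforehand. The cold summit was 15 bp from the middle of the match at Uba1, 26 bp at Cops6, 31 bp at Usp31, 36 bp at Ube2j2, 54 bp at Usp21 and 60 bp at Ube2l3. The matches at Cops6, Ube2l3, Uba1, Ube2j2 and Usp21 began 8, 28, 32, 34 and 42 bp after the start. Usp31 differs in having a match on each side of its summit, beginning 170 and 75 bp before the start. Cops6 has a further match 200 bp before its start. The window searched holds the cold summit nearest to a start at only 4 of the 14 members, Cops6, Ube2j2, Usp31 and Usp32. Of the 8 members without a match, 7 have that summit outside the window, Ufc1 among them, so the sequence at those summits was not searched.

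The longer motif contains the shorter one and was found at 4 members: Ube2l3 and Uba1 with a cold peak, and Usp6nl and Usp9y without. At Usp21 the window searched ends with the last letter of the shorter match, so the longer motif could not be found at that match. Over all genes with an entry, 185 had the longer motif (1.06%), and 131 of these had a cold peak (70.8%, 63.7 to 77.2), against 5.99% of genes without it. For the shorter motif, 40.7% of the 1305 genes with a match had a cold peak, and 6 of 17 members did (35.3%, 14.2 to 61.7). The 11 members with the shorter match and no peak in either list were Cops3, Uba1y, Ube2dnl1, Ube2g1, Ube2q1, Ube2v1, Usp11, Usp24, Usp47, Usp6nl and Usp9y, a group named after the search. A match is a description of letters and does not show a bound site.

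**Figure D5:**
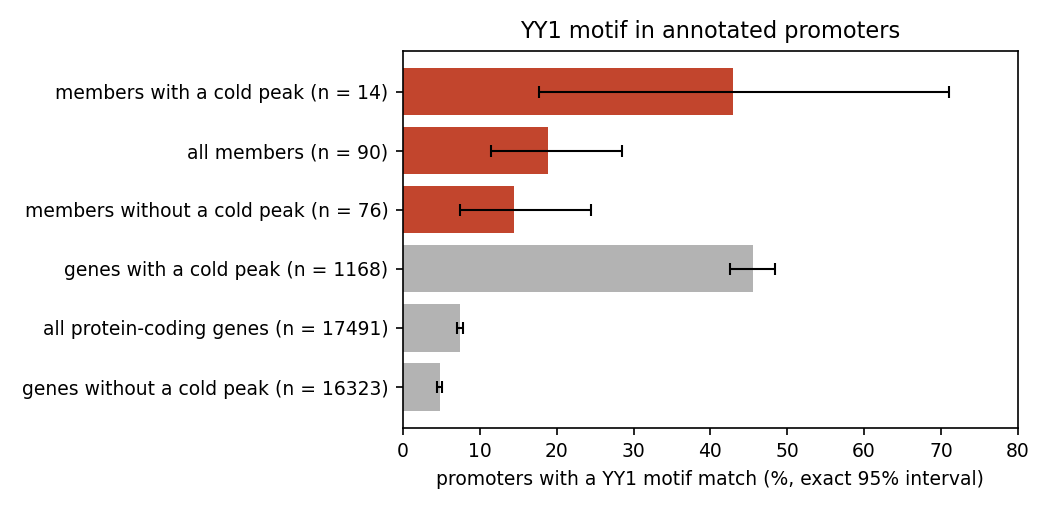
Share of annotated promoters with a YY1 motif match (percent, bars from 0, with exact 95% Clopper-Pearson intervals), for members in red and all protein-coding genes in grey, each also split by a listed cold peak. Members with a cold peak reach 42.9% and all genes with a cold peak 45.5%, against 14.5% and 4.74% without.

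Other genes of these relays were taken from a list of 89 genes. After cold 14 had a peak (15.7%, 8.88 to 25), again beside 6.43% of all genes, and at room temperature 2 did (2.25%, 0.273 to 7.88), beside 0.864%. The cullin ligase group had 4 of 13 with a cold peak (30.8%, 9.09 to 61.4), and differences between the groups were not tested. Among the 4 were both RING subunits that recruit the loaded conjugating enzyme. Rbx1 had 11 room temperature fragments (5.49 to 19.7) and 40 cold fragments (28.6 to 54.5), and Rnf7 had 20 after cold (12.2 to 30.9). Elob, an adaptor subunit of cullin ligases, had 23 after cold (14.6 to 34.5). Cul4b was the fourth of this group, with 11 after cold (5.49 to 19.7), inside the gene and 11548 bp after its nearest annotated start. Of 11 NEDD8 genes only Nae1 had a peak (9.09%, 0.23 to 41.3, which includes 6.43%), with 14 fragments after cold (7.65 to 23.5). Its product is the partner of Uba3 in the NEDD8-activating enzyme. An end of Car7, a carbonic anhydrase gene, lies within 1 kb of the same summit, so the peak cannot be given to Nae1 alone.

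Of 32 deubiquitinases outside the USP family 3 had a cold peak. Otub1 was in both lists, with 11 room temperature fragments (5.49 to 19.7) and 23 cold fragments (14.6 to 34.5). Yod1 had 33 after cold (22.7 to 46.3), and Brcc3 had 11 (5.49 to 19.7) within reach of ends of Cmc4 and Mtcp1. The share of 9.38% (1.98 to 25) is near that of the USP genes and of all genes. Of 15 SUMO genes 3 had a cold peak (20%, 4.33 to 48.1), an interval that includes the 6.43% of all genes. The protease gene Senp3 had 26 fragments (17 to 38.1), 9375 bp after its nearest annotated start and in reach of an end of Eif4a1 as well. The ligase gene Pias1 had 24 (15.4 to 35.7) and the modifier gene Sumo2 had 14 (7.65 to 23.5).

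Among 12 genes of other modifiers, 3 had a cold peak (25%, 5.49 to 57.2). This interval includes the 6.43% of all genes. The modifier gene Urm1 had 16 fragments (9.15 to 26), and Mocs3, whose product activates URM1, had 15 (8.4 to 24.7) within 1 kb of an end of Dpm1. Ubl3 had 17 (9.9 to 27.2). The 4 co-factor genes of the UFM1 system had 0 peaks in both libraries, for which the interval reaches 60.2%.

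At the edge of the rule, the member summits farthest outside a gene were those of Ufc1 with Usp21 (703 bp), Ube2s (681 bp) and Usp38 (562 bp). The nearest cold summits beyond reach lay 2.93 kb from Usp33 (26 fragments) and 3.63 kb from Ube2g1 (7 fragments), so 0 members lay between 703 bp and 2.93 kb.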

How the data were processed

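YY1 occupancy was measured in 2 libraries, 1 per condition, grouped by the labels. The submitters' processing notes name mm10 and the tools BWA, SAMtools, MACS2, deepTools and DESeq2, with no version. Not given there are the settings, how duplicates were handled and which control was used. Each library has its own peak list from the authors. Per peak, the authors deposited a fold enrichment over background (a linear ratio), the −log10 of its p-value, the −log10 of its q-value and a score, besides the summit offset. In every entry the deposited score is 10 times the −log10 p, cut to a whole number.

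Fragments were computed by inverting fold = (pileup + 1) / (background + 1) together with the Poisson p, and all 165 and 1259 entries matched within 0.0002 in −log10 p. The inversion was tested on simulated data and recovered 165 of 165 and 1259 of 1259 pileups, which tests the inversion and not the formula. Peaks were called shared at an overlap of at least 1 bp. Shared peaks with a background above 10 fragments were left out of the median ratio. Coordinates are 1-based, and the gene table gives no exons. Python 3.11.15, scipy 1.17.1 and pandas 2.3.3 were used.

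No p-value was computed, because each condition has 1 library. The members, the other pathway genes and the motifs were chosen with earlier results of these data known. The symbol rule matched 114 genes, of which 2, and 1 gene of the pathway list, are not reported here and were left out of every count of members. Of the pathway list, Skp1a and Zufsp had no match by symbol. Named were members with a room temperature peak, up to 8 members per class by cold fragments, all UFM1 and COP9 genes, up to 3 pathway genes per group and neighbouring genes. Other members and the fourth cullin group gene were named after their values were seen. Alternatives covered the window, the gene ends counted, the −log10 q, the interval, the symbols, the overlap, the depth and the motif.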

Additional observations from a re-analysis of the deposited data

How the results depend on the processing

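No paired analysis was possible because there is a single library on each side, and for the same reason no library could be left out. The settings without Usp6nl and Ube2cbp, with annotated starts only and without the Ufc1 peaks were chosen after seeing the data. The number of members with a peak stayed within 1.5 times under every setting run, at 14 to 17 after cold (16 reported) and 4 to 5 at room temperature (5 reported). Counting only Ube2 symbols with a further number left 97 members, 15 of them with a cold peak. The other pathway genes stayed at 13 to 14 after cold and 2 at room temperature. Over all settings run, 32 values of the main results stayed within 1.5 times or their interval and 7 moved outside, and of the counts per class 72 stayed and 2 moved. The latter were the signalosome at room temperature, 1 with the nearest gene end only, and the activating enzymes after cold, 1 with gene ends only, which drops Uba1. The summed ratio at shared member peaks (3.46) moved to 2.32 with a reciprocal overlap of 50% and, equally, without the peaks at Ufc1, since the same 3 peaks remain. It was 3.3 after scaling by the lowest backgrounds, each divided by the smallest peak width of its list. With the longer motif of 11 bases the share of promoters with a match moved to 14.3% for members with a cold peak, 11.2% for all genes with a cold peak and 1.06% for all genes. With ATGGCGGC it was 28.6%, 23.8% and 3.5%. These motifs have more fixed letters than AANATGGC. At Usp21 the window searched ends with the AANATGGC match, so neither motif could be found at that match.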

Other observations

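The YY1 motif matches had a preferred place and direction in genes with a cold peak. Of 638 AANATGGC matches in their promoters, 47.5% began at or after the annotated start and 66.5% read AANATGGC on the gene's own strand. Of 802 matches in genes without a cold peak, 32.4% and 52.6% did. At members with a cold peak 5 of 8 matches began after the start and 5 of 8 were on the gene's own strand, and at members without, 4 of 11 and 6 of 11. The part of the window after the start is 50 bp against 250 bp before it. Genes with a room temperature peak had a match in 63.9% of 158 promoters (55.9 to 71.4), above the 45.5% of genes with a cold peak. The shared genes are in both groups, and the difference was not tested.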
